A study of Mus musculus with 43 samples.

Results

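Id1, Id2, Id3, Id4 and Myc were read as a set of 5 genes out of the 23951 genes in the bulk expression tables of this study. The members were chosen by symbol, and each symbol occurred once in the bulk tables and once among the 54307 gene rows of the single-cell matrices. The ID proteins are helix-loop-helix proteins without a DNA-binding basic region. They pair with E proteins such as TCF3, TCF4 and TCF12 and keep them, and the lineage factors that need them, off DNA, and their genes are classic targets of BMP signalling through SMAD1 and SMAD5. MYC is a basic helix-loop-helix leucine zipper factor that binds DNA with MAX, drives genes of ribosome production and growth, and is a known target of Wnt signalling in the intestinal crypt, while its repression is a textbook part of growth arrest by TGFB1 in epithelial cells.

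The samples were primary intestinal organoids from wild-type C57BL/6 mice and crypt cells sorted by the Ki67-RFP reporter of Mki67tm1.1Cle/J mice. Bulk RNA was taken from 18 libraries, 3 in each of 6 groups. Organoids of the first condition received no radiation and were harvested on day 7 (D7 non-IR), those of the second received 4 Gy on day 4 and were harvested on day 7 (D7 IR), and those of the third received the same dose and were harvested on day 11 (D11 IR). In each condition 3 libraries came from vehicle and 3 from 2 ng/mL TGFB1, given on day 6 for 24 h, so the D11 organoids were measured 4 days after the end of treatment. All groups of the day comparison carried the 4 Gy dose. Single-cell RNA came from irradiated (4 Gy) day 8 organoids with vehicle (called 0 h) or with 1 ng/mL TGFB1 for 6, 15 or 24 h, with 1 library each, and from Ki67-RFP cells of 1 non-irradiated library and of 2 libraries made 56 h after 12 Gy. The labels do not say that replicates came from separate cultures or animals, so p-values measure only the spread between these libraries, which may be technical.

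Bulk values are FPKM (fragments scaled to transcript length and library size), which allow levels of different genes to be set side by side. Their read depth is unknown, and the libraries listed 8285 to 8708 genes at 0. Replicates lay close together on D7, where the median coefficient of variation over genes of at least 10 FPKM was 3.13 to 4.12%, and less close on D11, at 8.24% with vehicle and 5.36% with TGFB1. As a check of the labels, Smad7, an inhibitory SMAD induced by TGFB1, averaged 3.51 FPKM with vehicle and 20.7 FPKM with TGFB1 in D7 non-IR organoids and 2.76 and 15.2 FPKM in D7 IR organoids. All stem cell and enterocyte markers were measured above 1 FPKM in the unirradiated vehicle group, whereas the summed level of 6 mesenchymal markers was at most 4.76 FPKM, with Col3a1 and Dcn at 0 in all 3 libraries of the group in which it was highest. The labels give 5500 sorted cells for crypt libraries, whose files held 1849, 727 and 721 barcodes. Single-cell libraries kept 699 to 4283 cells with a median of 6709 to 14399 UMIs (unique molecular identifiers) per cell.

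Promoter sequence was at hand for 3 of the 5 members (Id2, Id3 and Id4), from RefSeq on build GRCm38.p6. The 250 bases before the start of Id2 and Id3 are shown because both genes were lower with TGFB1 in single cells of organoids and went opposite ways in irradiated crypt cells, and because each holds a different one of the SMAD motifs searched. Capitals mark GGCGCC, the GC-rich SMAD motif of BMP targets, and CAGAC or its reverse complement GTCTG, the SMAD box. Id2 is read from chr12:25096093-25096342 (minus strand) and Id3 from chr4:136143572-136143821 (plus strand), both 5′ to 3′ and ending at the base before the start.
Id2: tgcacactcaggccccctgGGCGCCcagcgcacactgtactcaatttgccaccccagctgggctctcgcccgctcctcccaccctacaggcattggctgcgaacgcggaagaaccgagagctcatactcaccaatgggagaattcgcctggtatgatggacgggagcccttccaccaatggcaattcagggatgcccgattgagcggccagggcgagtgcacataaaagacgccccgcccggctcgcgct
Id3: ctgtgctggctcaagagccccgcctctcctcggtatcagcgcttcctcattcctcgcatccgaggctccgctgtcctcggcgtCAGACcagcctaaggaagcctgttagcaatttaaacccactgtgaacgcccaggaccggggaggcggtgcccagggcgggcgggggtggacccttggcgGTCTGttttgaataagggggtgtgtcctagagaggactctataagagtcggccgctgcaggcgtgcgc
The Id2 window held 1 GGCGCC, 231 to 226 bases before the start, and no SMAD box. The Id3 window held 2 SMAD boxes, beginning 167 and 68 bases before the start, and no GGCGCC. In the Id4 window, not printed, there was 1 GGCGCC and no SMAD box. Of all 32851 promoter windows of the same length, 9.59% held GGCGCC and 42.2% held CAGAC or GTCTG. The E-box CANNTG, to which E proteins bind, was found 1 time before Id2, where it was in lower case, and not before Id3 or Id4, against 66.2% of all windows. A motif match here describes letters and does not show that a factor binds.

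Among the members Id2 and Myc had the highest levels in unirradiated vehicle organoids, Id1 and Id3 followed, and Id4 was barely detected. Mean FPKM there were 73.7 ± 1.62 for Id2, 65.3 ± 1.76 for Myc, 37.1 ± 2.01 for Id1, 18 ± 2.57 for Id3 and 0.394 ± 0.151 for Id4 (SD, n = 3). None of these neighbours in the order overlapped between libraries. Id4 averaged between 0.158 and 0.732 FPKM over the 6 groups and missed the minimum mean of 1 FPKM in every table. It therefore entered none of the tests below that used this filter, and the other 4 members did.

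**Figure D1:**
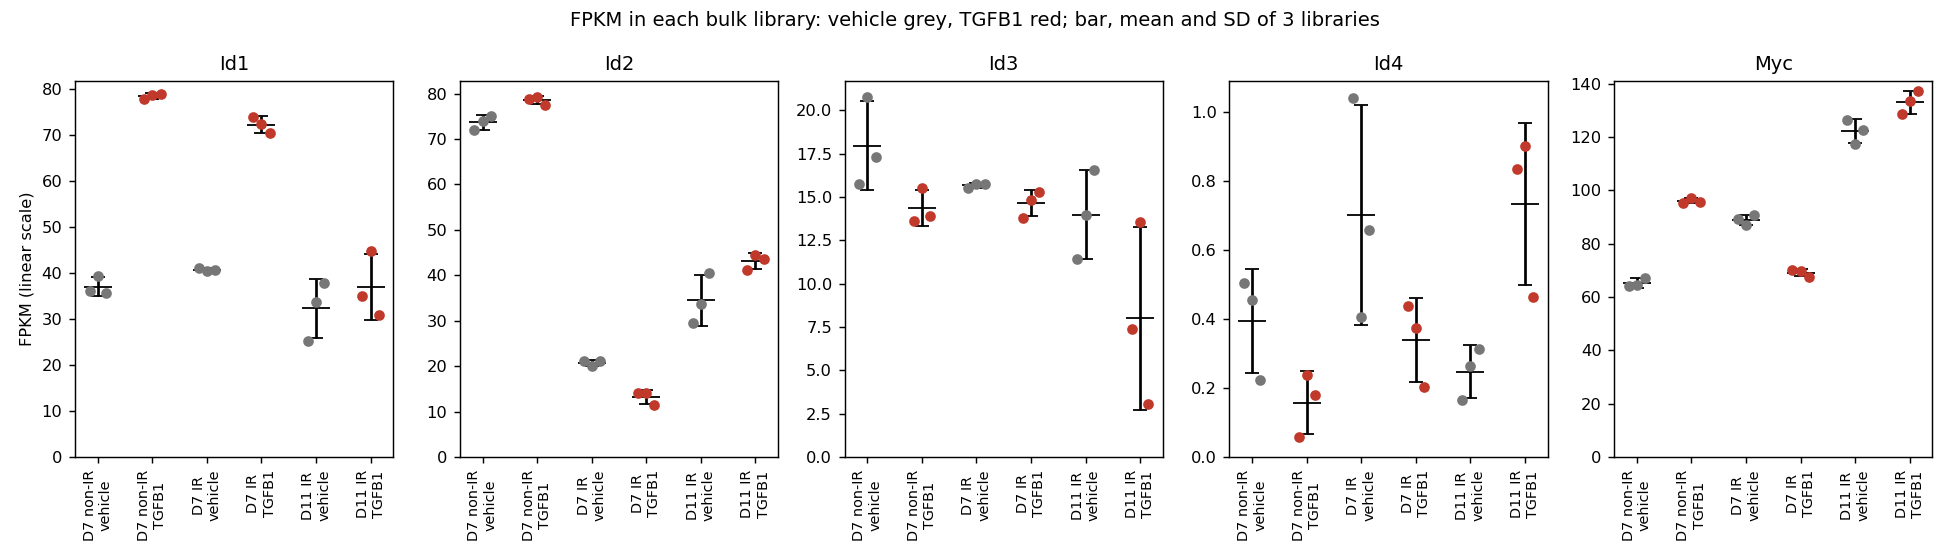
FPKM (linear scale) of the 5 genes in each of the 18 bulk libraries, by group, with vehicle in grey and TGFB1 in red, and with the mean and SD of 3 libraries as bars. Id1 with TGFB1 stands near 78.5 and 72.3 FPKM on D7 and near 36.9 FPKM on D11, Id2 is low in both D7 IR groups, and Myc averages 65.3 FPKM in unirradiated vehicle and 122 FPKM in D11 vehicle libraries.

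The response to TGFB1 was first asked in unirradiated organoids. Id1, which restrains differentiation in many epithelia, rose 2.12-fold, and Myc rose 1.47-fold. Id2 rose by a small margin and Id3 fell. All 4 tested members were called at an adjusted p under 0.05 (limma on log2(FPKM + 1), Benjamini-Hochberg over all genes, two-sided), in a comparison where 68.2% of the 11330 tested genes were called (33.3% higher and 34.9% lower), so a call alone sets no member apart.

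Id1 measured 36.1, 39.4 and 35.7 FPKM with vehicle and 77.8, 78.7 and 78.8 FPKM with TGFB1. Every treated library was above every vehicle library, by far more than the spread within either group. The log2 change was 1.06 (SE 0.0414, limma adjusted p = 3.09e-09). Myc measured 64.1, 64.4 and 67.3 FPKM with vehicle and 95.4, 97.1 and 95.6 FPKM with TGFB1. Again the groups did not overlap, and the log2 change was 0.55 (SE 0.0329, limma adjusted p = 8.88e-08).

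Id2, an ID gene that is high in many intestinal epithelial and lymphoid cells, measured 71.9, 74.0 and 75.1 FPKM with vehicle and 78.7, 79.2 and 77.6 FPKM with TGFB1. The groups did not overlap, but the log2 change was only 0.091 (SE 0.0322, limma adjusted p = 0.0278), and it missed the threshold under quantile normalization (0.032, limma adjusted p = 0.373) and when vehicle replicate 1, vehicle replicate 2 or treated replicate 2 was left out (limma adjusted p = 0.106, 0.0563 and 0.0749). Id3 measured 15.8, 20.8 and 17.3 FPKM with vehicle and 13.6, 15.5 and 13.9 FPKM with TGFB1. The highest treated value lay just under the lowest vehicle value, and the log2 change was -0.30 (SE 0.0904, limma adjusted p = 0.0157). It was not called when treated replicate 1 or treated replicate 3 was left out (limma adjusted p = 0.0634 and 0.0536). With all 18 libraries in one fit, where the wider spread on D11 enters the error, the adjusted p of the Id3 change became 0.445 and that of the Id2 change 0.375 in limma.

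In organoids irradiated before the treatment, Id1 rose again, while Myc and Id2 fell and Id3 did not pass the test. Id1 measured 41.0, 40.4 and 40.8 FPKM with vehicle and 74.0, 72.4 and 70.4 FPKM with TGFB1, a 1.77-fold rise. No treated library came near a vehicle library (log2 change 0.81, SE 0.0365, limma adjusted p = 1.14e-08). Over all 11258 tested genes 75.5% were called in this comparison (35.8% higher and 39.7% lower), beside 3 of the 4 tested members.

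Myc measured 89.1, 86.9 and 90.7 FPKM with vehicle and 70.2, 69.7 and 67.5 FPKM with TGFB1, so here all treated libraries were the lower ones. The log2 change was -0.36 (SE 0.0359, limma adjusted p = 5.39e-06), against the rise of 0.55 without radiation. Id2 measured 21.1, 19.99 and 21.1 FPKM with vehicle and 14.1, 14.2 and 11.5 FPKM with TGFB1. Both groups were far below the unirradiated libraries and did not overlap each other (log2 change -0.61, SE 0.0733, limma adjusted p = 2.33e-05). Id3 measured 15.5, 15.8 and 15.7 FPKM with vehicle and 13.8, 14.9 and 15.3 FPKM with TGFB1. All treated values were lower, by little (log2 change -0.09, SE 0.0503, limma adjusted p = 0.12).

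On day 11, after 4 days without TGFB1, the D7 differences of Id1 and Myc between treated and vehicle organoids were no longer called. Id1 measured 25.3, 33.8 and 37.9 FPKM in vehicle and 35.1, 44.8 and 30.8 FPKM in treated organoids, with overlapping groups (log2 change 0.19, SE 0.172, limma adjusted p = 0.364). Myc measured 126, 118 and 123 FPKM in vehicle and 128, 133 and 137 FPKM in treated organoids. The Myc groups lay close together without overlap, and the log2 change of 0.12 (SE 0.0783) did not pass the test (limma adjusted p = 0.199). The change passed with quantile normalization (0.22, limma adjusted p = 0.0421) and with all 18 libraries in one fit (limma adjusted p = 0.0169).

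Id2 was the called member on D11. It measured 29.4, 33.7 and 40.5 FPKM in vehicle and 41.1, 44.5 and 43.7 FPKM in treated organoids, so treated libraries, lower on D7, were the higher ones here. The log2 change was 0.32 (SE 0.106, limma adjusted p = 0.0232), and it was lost without the filter on low genes (limma adjusted p = 0.0513) and when any of 4 libraries was left out, vehicle replicate 1 (0.22, limma adjusted p = 0.0581), vehicle replicate 2 (0.31, limma adjusted p = 0.0645), treated replicate 2 (0.30, limma adjusted p = 0.0701) or treated replicate 3 (0.31, limma adjusted p = 0.0586). Id3 measured 11.4, 13.9 and 16.6 FPKM in vehicle and 7.38, 13.6 and 3.08 FPKM in treated organoids. The treated libraries differed among themselves more than the groups did, and the log2 change of -0.90 (SE 0.517) was not called (limma adjusted p = 0.191). Without treated replicate 2, which held 13.6 FPKM, the change was -1.34 (limma adjusted p = 0.018). Of all 11479 tested genes 63.9% were called (32.3% higher and 31.6% lower), beside 1 of the 4 tested members.

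Id4, which is known chiefly from neural progenitors, stood at 0.394 and 0.158 FPKM without and with TGFB1 in D7 non-IR organoids, at 0.701 and 0.339 FPKM in D7 IR organoids, and at 0.247 and 0.732 FPKM in D11 organoids. No library passed 1.04 FPKM. Fitted without the filter on low genes, its log2 changes were -0.26, -0.33 and 0.47 (limma adjusted p = 0.0468, 0.0796 and 0.0102). In that setting its interactions were -0.07 with radiation and 0.80 with day (limma adjusted p = 0.818 and 0.00521). The groups overlapped on D7 and not on D11, and at these levels the number of reads behind each value is unknown.

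**Figure D2:**
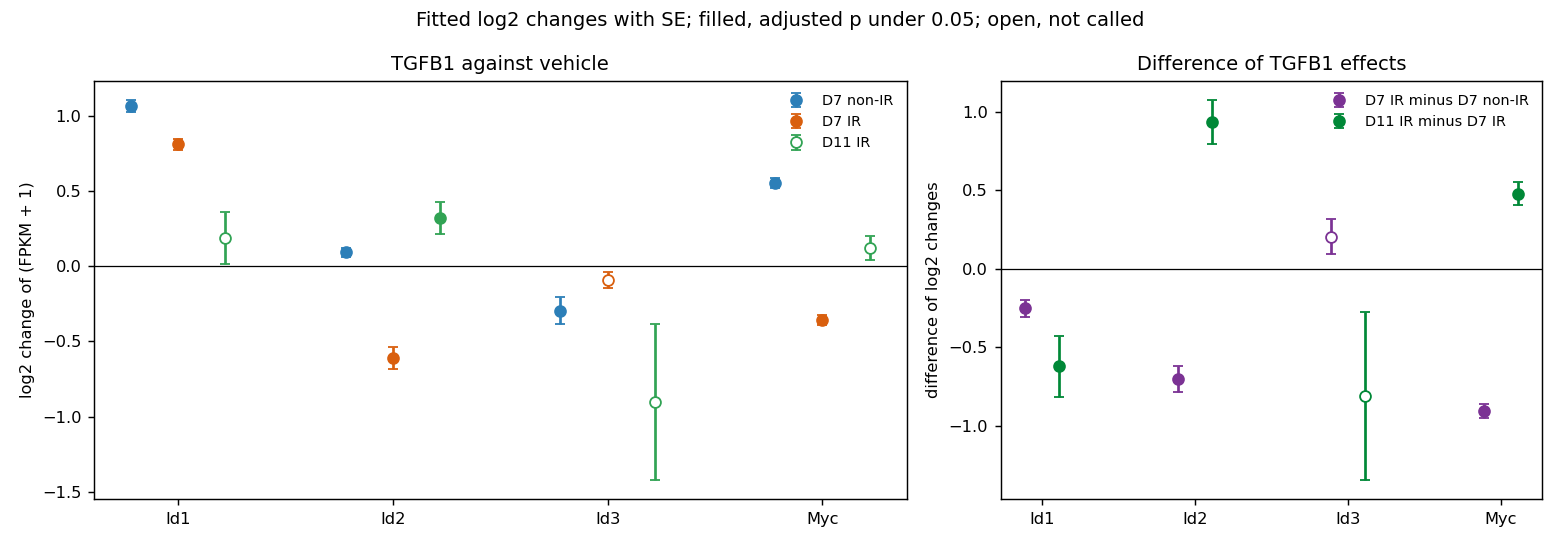
Left, fitted log2 change of (FPKM + 1) from vehicle to TGFB1 for the 4 tested genes in the 3 organoid conditions (3 against 3 libraries). Right, the difference between 2 such changes. Bars are SE, and filled points have a limma adjusted p under 0.05. Myc is at 0.55 without radiation and at -0.36 with it.

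Whether radiation altered the response was tested as the interaction over the 12 D7 libraries. The Myc response was lower by 0.91 log2 units in irradiated organoids (SE 0.0451, limma adjusted p = 1.52e-09), with a rise in one condition and a fall in the other. For Id2 the response was lower by 0.70 (SE 0.0842, limma adjusted p = 8.09e-06). For Id1, which rose in both conditions, it was lower by 0.25 (SE 0.0535, limma adjusted p = 0.00119), and this was not called with all 18 libraries in one fit (limma adjusted p = 0.251). The Id3 response did not differ at the threshold (0.21, SE 0.111, limma adjusted p = 0.135). It did so when unirradiated vehicle replicate 1 was left out (0.29, limma adjusted p = 0.027), and with a replicate block, given at the end. Over all genes 53.1% were called (25.3% higher and 27.8% lower), beside 3 of the 4 tested members.

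Between D7 and D11 in irradiated organoids, the difference between treated and vehicle libraries shifted upward for Id2 and Myc and downward for Id1. The shift was 0.94 for Id2 (SE 0.140, limma adjusted p = 5.09e-05), 0.48 for Myc (SE 0.0740, limma adjusted p = 6.6e-05) and -0.62 for Id1 (SE 0.194, limma adjusted p = 0.0137). For Id3 it was -0.81 (SE 0.534, limma adjusted p = 0.213), and -1.25 without the treated D11 replicate 2 (limma adjusted p = 0.00838). Among all genes 64.5% were called (31.5% higher and 33% lower), beside 3 of the 4 tested members. Both interactions use the D7 IR libraries, so their values are not independent of each other.

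Radiation by itself could be compared only as levels, since the conditions were deposited in separate tables that may have been scaled separately. Vehicle libraries of Id2 went from 71.9 to 75.1 FPKM without radiation to 19.99 to 21.1 FPKM with it, 3.55-fold lower in the mean. With TGFB1 the gap was wider, from a mean of 78.5 FPKM to 13.3 FPKM (5.92-fold lower). Myc was 1.36-fold higher in irradiated vehicle organoids (88.9 against 65.3 FPKM) and 1.39-fold lower in irradiated treated organoids (69.2 against 96.0 FPKM). Id1 differed by 1.10-fold between the vehicle groups, without overlap, and Id3 overlapped. Libraries of the 2 vehicle groups did not overlap in 85% of all genes (40.7% higher and 44.3% lower after radiation), and in 84.1% of genes with TGFB1 (38.4% and 45.7%), so separation alone is the common case.

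From D7 to D11 the irradiated vehicle libraries of Id2 were 1.66-fold higher (20.7 to 34.5 FPKM), still below the unirradiated level, and those of Myc 1.37-fold higher (88.9 to 122 FPKM). Id1 was 1.26-fold lower on D11 and Id3 overlapped. Among all genes 66.9% did not overlap in this pair of groups (33.7% higher and 33.1% lower on D11). In treated organoids Id2 was 3.25-fold higher (13.3 to 43.1 FPKM) and Myc 1.92-fold higher (69.2 to 133 FPKM), while Id1 was 1.96-fold lower and Id3 1.83-fold lower. All 4 were without overlap between the treated groups, against 77.4% of genes (38.7% higher and 38.8% lower on D11).

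Summed levels of cell type markers differed between these groups, and in bulk samples fewer cells of a type and less RNA per cell cannot be told apart. The summed level of 9 cycling-cell markers (among them Mki67, Top2a and Pcna) ran from 606 to 611 FPKM with vehicle and from 453 to 476 FPKM with TGFB1 in D7 non-IR organoids, from 494 to 509 and from 163 to 186 FPKM in D7 IR organoids, and from 498 to 552 and from 519 to 543 FPKM in D11 organoids. Myc and Id2 fell with TGFB1 in the condition in which cycling markers were lowest. The sum of 7 stem cell markers went with it, from 968 to 1000 FPKM with vehicle and from 436 to 539 FPKM with TGFB1 in D7 IR organoids, against 874 to 959 and 691 to 733 FPKM in D7 non-IR organoids and 578 to 739 and 759 to 958 FPKM on D11. The 7 markers did not move alike. In D7 IR organoids Gkn3 rose (13.3 to 62.7 FPKM) while Olfm4 (666 to 244 FPKM) and Lgr5 (21.8 to 8.85 FPKM) fell. On D11 Olfm4 rose (238 to 450 FPKM) while Lgr5 (59.0 to 29.2 FPKM) and Smoc2 (98.3 to 62.9 FPKM) fell. The sum of 7 regenerative markers, Clu among them, was higher with TGFB1 in each condition, at 883 to 919 and 4510 to 4660 FPKM in D7 non-IR organoids, 691 to 729 and 6210 to 6700 FPKM in D7 IR organoids, and 846 to 1000 and 6150 to 7240 FPKM on D11. The sum of 9 enterocyte markers was 12700 to 13500 FPKM with vehicle and 19000 to 19900 FPKM with TGFB1 in D7 IR organoids, against 3450 to 3600 and 2100 to 2260 FPKM in D7 non-IR organoids. The group with the lowest Id2 level was the one with the highest enterocyte markers. The part of these markers in the results for Myc and the Id genes was not tested.

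Genes that MYC is known to activate were followed through a list of 35 genes of the nucleolus, ribosome production and growth. Without radiation, where Myc rose and 33.3% of all genes were called higher and 34.9% lower, 9 of the 35 rose with TGFB1, 8 fell and 18 were not called. The list was thus called less often than genes at large. Its median log2 change was -0.00587, against -0.0169 over all genes. Hk2, a hexokinase, rose most (37.9 to 63.0 FPKM, log2 change 0.72), and Slc19a1, the folate carrier, fell most (49.1 to 29.7 FPKM, -0.71). In irradiated organoids, where Myc fell, 34 of the 35 fell and Hk2 alone rose, with a median of -0.855 against -0.0284 over all genes. There 35.8% of all genes were called higher and 39.7% lower. Cad, which starts pyrimidine synthesis, went from 25.4 to 6.57 FPKM (log2 change -1.81, limma adjusted p = 1.57e-09), and Srm, spermidine synthase, went from 103 to 35.0 FPKM (-1.53, limma adjusted p = 3.01e-08).

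On D11 the same list was on the other side, with 23 of the 35 genes higher in treated organoids, 1 lower and 11 not called (median 0.303, against 0.0137 over all genes). Among all genes 32.3% were called higher and 31.6% lower. Nme1, a nucleoside diphosphate kinase, was 57.8 FPKM in vehicle and 133 FPKM in treated organoids (log2 change 1.20, limma adjusted p = 5.68e-06). The test of the difference between conditions was passed by all 35 listed genes in both interactions, against 53.1 and 64.5% of all genes. All 35 had a lower response in irradiated than in unirradiated D7 organoids (median -0.799), and all 35 had a higher difference on D11 than on D7 (median 1.14). The direction was thus the one of Myc itself in both interactions, though the list moved further than Myc in D7 IR organoids (median -0.855 against -0.36) and not at all on balance in D7 non-IR organoids, where Myc rose by 0.55. Cycling markers, given above, were lower with TGFB1 in both D7 conditions, by more in D7 IR organoids, and overlapped between the D11 groups. Compared between conditions, their sums thus shifted in the same direction as the list both times. The part of the cycling markers in the list result was not tested.

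**Figure D3:**
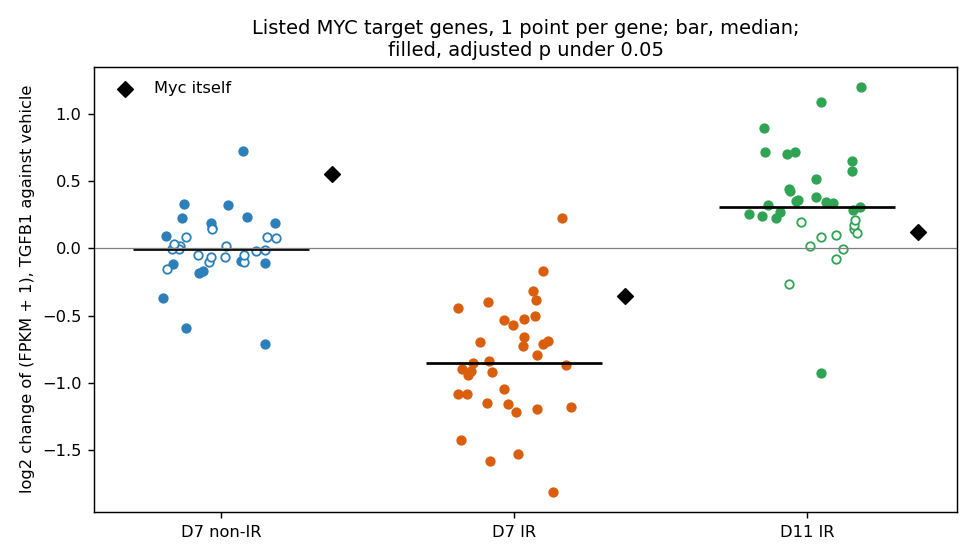
Fitted log2 change of (FPKM + 1) from vehicle to TGFB1 of the 35 listed MYC target genes in the 3 organoid conditions in the order D7 unirradiated, D7 irradiated and D11 irradiated, 1 point per gene, with the median as a bar and Myc itself as a diamond. Filled points have a limma adjusted p under 0.05. The medians are -0.00587, -0.855 and 0.303.

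Of the MYC and MAX network 13 other genes were tested. Mycn, the paralogue of Myc, was low with vehicle and rose in all 3 comparisons, from 1.21 to 9.52 FPKM in D7 non-IR organoids, from 3.08 to 18.7 FPKM in D7 IR organoids and from 1.94 to 8.83 FPKM on D11 (log2 changes 2.26, 2.27 and 1.72). Even so it stayed far under Myc in FPKM in every group. Mxd1, which competes with MYC for MAX and is linked to growth arrest, rose on D7 from 22.4 to 79.5 FPKM without radiation and from 17.4 to 72.9 FPKM with it (log2 changes 1.78 and 2.00). Mlxipl, which encodes the glucose-sensing factor ChREBP, fell in all 3 comparisons, on D11 from 158 to 20 FPKM (log2 change -2.92). In total 7 of 13 rose and 3 fell without radiation, 6 rose and 4 fell with it on D7, and 3 rose and 3 fell on D11. Among all genes 68.2, 75.5 and 63.9% were called in these comparisons, so the list was called in shares near these on D7 and in a smaller one on D11, which is no result about the list.

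The upstream side of the Id genes was read from a list of BMP ligands, receptors and SMADs. Of 15 tested in D7 non-IR organoids 6 rose and 6 fell, of 14 in D7 IR organoids 5 rose and 4 fell, and of 15 on D11 5 rose and 6 fell, close to the 68.2, 75.5 and 63.9% called among all genes. Acvr1, a type I receptor for BMPs, rose in all 3, on D7 from 9.89 to 26.9 FPKM without radiation and from 8.13 to 24.5 FPKM with it (log2 changes 1.36 and 1.48). Bmp7 and Bmp3, both ligands, fell in all 3, with log2 changes on D11 of -1.87 and -3.19. Antagonists and feedback inhibitors of BMP and TGFB signalling rose in most cases, 9 of 10 tested in each D7 comparison and 7 of 10 on D11. Of all genes 33.3, 35.8 and 32.3% were called higher in these comparisons. The medians of the list were 1.15, 1.25 and 0.601. Pmepa1, which sequesters receptor SMADs, had the largest rise in each, with log2 changes of 4.31, 4.46 and 3.92.

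The partners that ID proteins restrain did not share one direction. Of 11 tested E proteins and lineage factors 5 rose and 3 fell in both D7 comparisons, and 2 rose and 4 fell on D11, which is about the share called among all genes on D7 (68.2 and 75.5%) and no more than it on D11 (63.9%). Tcf4, an E protein, rose in all 3, from 3.21 to 5.47, from 2.32 to 5.43 and from 2.67 to 5.00 FPKM. Neurog3 and Atoh1, which commit cells to the enteroendocrine and secretory lineages, fell on D7, with log2 changes of -0.73 and -0.44 without radiation and -1.03 and -0.87 with it, and Neurog3 fell on D11 as well (-0.52, limma adjusted p = 0.0282). Neurod1, a later factor of the enteroendocrine lineage, rose in D7 IR organoids (0.30, limma adjusted p = 0.0293). On D11 Neurod1 fell by more (-0.91, limma adjusted p = 0.00028), from 5.12 to 2.26 FPKM. The sum of 8 enteroendocrine markers, Neurog3 and Neurod1 among them, was 578 to 636 FPKM with vehicle and 1320 to 1380 FPKM with TGFB1 in that condition, 445 to 472 and 432 to 462 FPKM in D7 non-IR organoids, and 951 to 1130 and 378 to 476 FPKM on D11. Its part in these results was not tested. A list of Wnt target genes, to which Myc is often counted but which was drawn up without it, held 11 rising and 1 falling gene of 15 in D7 non-IR, 7 and 3 of 14 in D7 IR, and 9 and 2 of 14 on D11. Among all genes 33.3, 35.8 and 32.3% were called higher in these comparisons, and 34.9, 39.7 and 31.6% lower. Cd44 rose in all 3, and Lgr5, a stem cell receptor, fell in all 3 (log2 changes -0.38, -1.21 and -0.99).

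Growth arrest and early response genes gave the setting of the Myc changes. Cdkn1a, a CDK inhibitor that MYC is known to repress, rose on D7 without radiation (log2 change 1.03), where Myc also rose, and with it (0.94), where Myc fell. Cdkn2b, the other CDK inhibitor classically induced by TGFB1, rose from 40.4 to 84.3 FPKM in D7 IR organoids (log2 change 1.04). Its means without and with TGFB1 were 33.7 and 40.4 FPKM in D7 non-IR organoids, and 18.9 and 38.7 FPKM on D11, where the Myc change was not called. Of the 15 tested cytostatic genes 7 rose and 3 fell in D7 non-IR, 7 rose and 8 fell in D7 IR, and of 16 on D11 9 rose and 3 fell, where 68.2, 75.5 and 63.9% of all genes were called. Of 11 immediate early genes 8 rose and 1 fell in D7 non-IR, 10 rose and 0 fell in D7 IR, and 6 rose and 2 fell on D11, where 33.3, 35.8 and 32.3% of all genes were called higher. Fos had log2 changes of 1.76, 2.87 and 1.07, while Egr1 and Klf4 were the genes that fell on D11 (-0.48 and -0.23).

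The genes most like each member were sought by the correlation of log2(FPKM + 1), centred on each table's mean, over the 18 libraries, among 9040 genes of at least 5 FPKM. The 18 libraries share the same 6 groups, and the values carry no p. They describe patterns over groups and also the spread between libraries of a group. Epb4.1l4b (r = 0.974), Sh3bgrl3 (0.973) and Lgals4 (0.968) were most like Id1, and all 3 had higher means with TGFB1 in each D7 table. Jmjd6 (0.955), Ddx18 (0.952) and Snrpa1 (0.944) were most like Id2. For Myc they were Pcna (0.929), Ubap2 (0.901) and Pmpca (0.895), the first of which is among the 9 cycling-cell markers. Pcna did not go with the sum of those markers in D7 non-IR organoids. There it rose with TGFB1 from 137 to 186 FPKM while the sum fell. Kctd14 (0.907), Eif4ebp1 (0.889) and Efna1 (0.864) were nearest to Id3, and Reep4 (0.851), Lipt2 (0.848) and Sec61a1 (0.840) to Id4. Id3 ran from 3.08 to 13.6 FPKM within the treated D11 group, and its neighbours may reflect that spread more than the groups. Id4 averaged only 0.158 to 0.732 FPKM over the groups, so its neighbours carry little weight.

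In single cells of irradiated organoids, Id2, Id3 and Myc were lower at every time with TGFB1 than at 0 h, and Id1 was slightly higher. With 1 library per time there is no replicate check and no test, and the intervals given here (exact Poisson, 95%) cover counting error only. Levels are CPM, the UMIs of a gene scaled to all UMIs of the kept cells of a library. They are not scaled for length and are compared within a gene only.

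Id2 stood at 46.1 CPM (43.6 to 48.7) at 0 h, 27.9 CPM at 6 h, 24.6 CPM at 15 h and 25.7 CPM (23.9 to 27.5) at 24 h. Id3 stood at 41.2 CPM (38.9 to 43.7) at 0 h, and at 25.1, 25.2 and 26.9 CPM at 6, 15 and 24 h. Most of both differences was present at 6 h, when Id2 and Id3 were each 1.65-fold lower than at 0 h. Of 8400 genes of at least 10 CPM 4.45% were at least 1.5-fold apart at 6 h, 3.1% higher and 1.36% lower. At 24 h, when 16.8% of genes were so far apart (10.7% higher and 6.07% lower), Id2 was 1.80-fold lower and Id3 1.53-fold lower than at 0 h.

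Myc went from 61.1 CPM (58.2 to 64.1) at 0 h to 46.7 CPM (44.4 to 49.1) at 6 h, and was 50.5 and 49.4 CPM at 15 and 24 h. Myc CPM was thus lowest in the 6 h library, though its interval overlapped those at 15 h (47.8 to 53.2) and 24 h (46.9 to 52.0). Myc was 1.31-fold lower at 6 h and 1.24-fold lower at 24 h than at 0 h. Id1 went from 56.4 CPM (53.6 to 59.3) to 63.1 CPM (60.4 to 65.9) at 6 h, then 61.5 and 61.8 CPM. At 1.12-fold this was the smallest difference among these 4 genes at 6 h. Id4 had 3 to 24 UMIs in a library of 2218 to 4283 cells, which gave 0.114 to 0.784 CPM. At 24 h its 24 UMIs stood against 6 at 0 h (3.57-fold, counting interval of the log2 ratio 0.51 to 3.42).

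**Figure D4:**
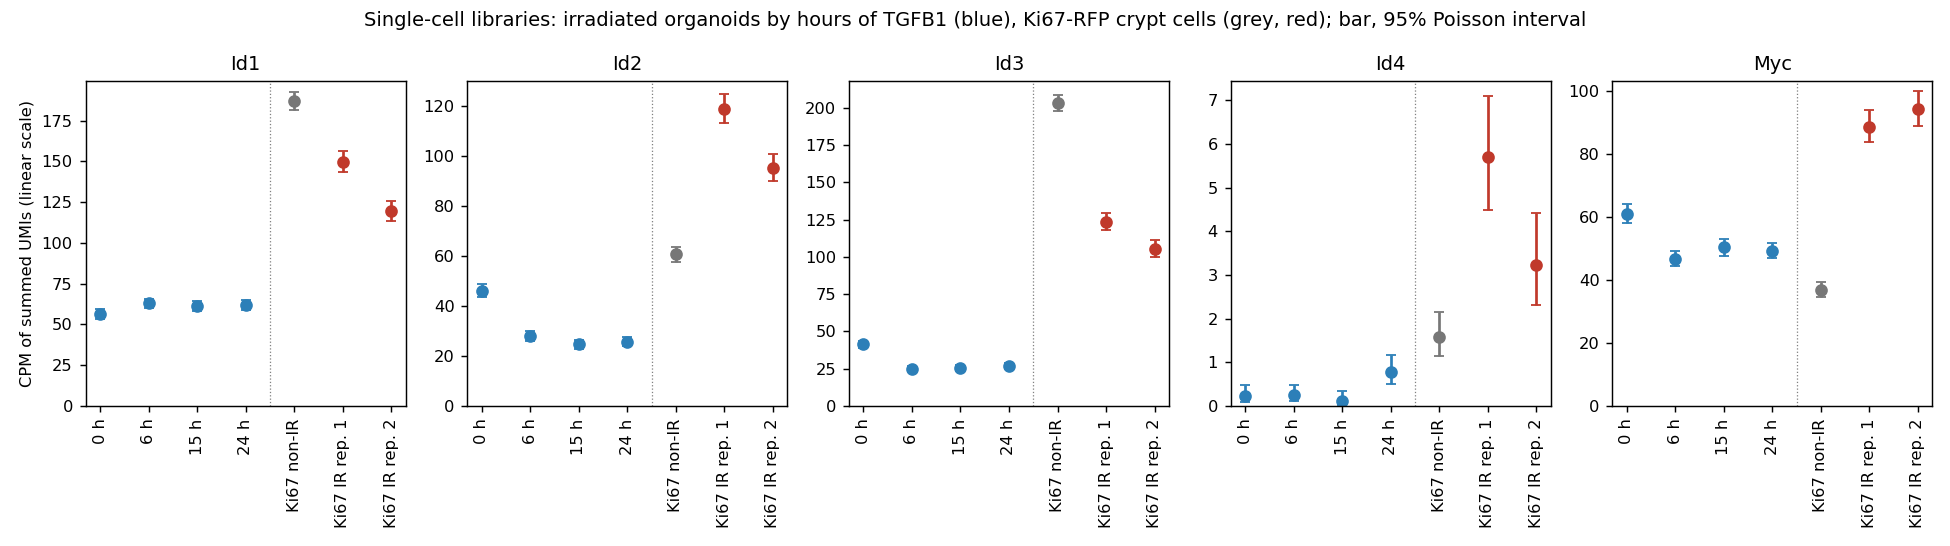
CPM (linear scale) of the 5 genes in the 4 libraries of irradiated organoids by hours of TGFB1 (blue) and in the 3 libraries of Ki67-RFP crypt cells, non-irradiated in grey and 56 h after 12 Gy in red. Bars are exact Poisson intervals (95%). Id2 and Id3 drop between 0 and 6 h, and Myc is higher in both irradiated crypt libraries (88.8 and 94.5 CPM) than in the other one (36.9 CPM).

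Beside the bulk D7 IR organoids, which received 2 ng/mL for 24 h, the single-cell organoids received 1 ng/mL and were taken on day 8. Log2 changes at 24 h were -0.84 for Id2 in single cells and -0.61 in bulk, and -0.31 for Myc in single cells and -0.36 in bulk. For Id3 they were -0.62 in single cells and -0.09 in bulk, where it was not called. For Id1 they were 0.13 in single cells and 0.81 in bulk. The difference between assays, doses and days was not tested.

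Mycn, which had risen in bulk, was 1.13 CPM at 0 h and 8.79, 12.2 and 14.2 CPM at 6, 15 and 24 h, and Mxd1 went from 23.2 to 67.8 CPM at 24 h. Among the listed MYC targets of at least 10 CPM, 0 of 35 were 1.5-fold lower at 6 h. At 15 h, when 11.1% of all genes were 1.5-fold apart (6.65% higher and 4.42% lower), 15 of 33 were lower by that much and 0 were higher. At 24 h, when 10.7% of all genes were higher and 6.07% lower, 9 of 34 were lower and 0 higher. Their median log2 ratio to 0 h was -0.0819, -0.579 and -0.484 at the 3 times, with all genes at 0.0284, 0.000548 and 0.0223. With 1 library per time and overlapping Myc intervals at 6, 15 and 24 h, no order of Myc and its targets can be read. The summed CPM of 9 cycling-cell markers was 926, 1057, 663 and 650 at 0, 6, 15 and 24 h. Its part in the target result was not tested.

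Cells were clustered without the 5 members, and clusters were named from marker genes where these allowed it. In each of the 4 libraries Myc was higher in stem-like cells (cluster led by Lgr5, Gkn3 and Nkd1), at 112 to 157 CPM, than in cycling-like cells, at 80.6 to 106 CPM, and was lowest in enterocyte-like cells, at 4.60 to 8.43 CPM. Among the stem-like, cycling-like and enterocyte-like classes Id2 had the same order in each library, with 46.9 to 71.8, 36.8 to 63.7 and 12.7 to 30.4 CPM. The Id2 intervals of stem-like and cycling-like cells overlapped at 0 and 6 h. Over all classes the order did not hold. Unnamed cells held less Id2 than enterocyte-like cells at 15 h (7.44 CPM) and 24 h (12.4 CPM), and enteroendocrine-like cells held 54.5 CPM at 6 h. Id1 was higher in cycling-like than in stem-like cells at 0 h (86.3 against 73.8 CPM) and 6 h (92.4 against 73.5 CPM), while at 24 h the values were 112 and 111 CPM, and enterocyte-like cells held 27.9 to 34.8 CPM. Id3 differed between the classes at 0 h, with 56.5 CPM in stem-like, 48.0 CPM in cycling-like and 31.8 CPM in enterocyte-like cells, and less at 24 h, with 29.1, 25.2 and 28.0 CPM.

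Within these classes the time course was not the same for each gene. In cycling-like cells Id1 went from 86.3 CPM (80.8 to 92.0) at 0 h to 112 CPM at 24 h, and in stem-like cells from 73.8 to 111 CPM, while in enterocyte-like cells it was 27.9 and 28.2 CPM. Over the same time cycling-like cells went from 32.2 to 10.5% of cells and stem-like cells from 7.47 to 16.6%. Enterocyte-like cells went from 37.2 to 24.1%, regenerative-like cells from 3.82 to 12.3% and cells of unnamed clusters from 17.0 to 32.9%. The Id1 level of the whole library, 56.4 CPM at 0 h and 61.8 CPM at 24 h, moved less than that of the classes where Id1 was highest. The part of the class shares in this was not tested. These shares come from clusters whose genes TGFB1 itself changes, and they are not read as a change of cell number.

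Id2 went from 63.7 to 36.8 CPM in cycling-like cells and from 30.4 to 14.1 CPM in enterocyte-like cells between 0 and 24 h, with most of the difference present at 6 h (39.2 and 13.5 CPM). In stem-like cells, where Id2 was above both of these classes, it went from 71.8 CPM to 46.9 CPM at 6 h. It stood there at 53.3 and 57.8 CPM at 15 and 24 h. Myc went from 106 to 80.6 CPM at 6 h in cycling-like cells and from 157 to 112 CPM in stem-like cells, and stood at 84.1 and 119 CPM at 24 h. Its level was thus lower in both classes at the first time with TGFB1. In regenerative-like cells (led by Anxa8, Anxa1 and Msln, and rich in Clu) Myc was 29.8 CPM at 0 h, 16.5 at 6 h, 56.6 at 15 h and 71.9 CPM at 24 h. That class took in 112 cells at 0 h and 273 at 24 h. With finer clustering (resolution 1.0) it held 3 cells at 0 h and the stem-like class 7, so changes from 0 h could be followed there only in the other classes. Myc in the finer regenerative-like class was 51.6 CPM at 6 h (25 cells) and 88.95 and 88.87 CPM at 15 and 24 h, so its level at 6 h depended on the clustering and no rise from 15 to 24 h was seen. In that clustering Id1 in cycling-like cells again went from 78.3 to 110 CPM.

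**Figure D5:**
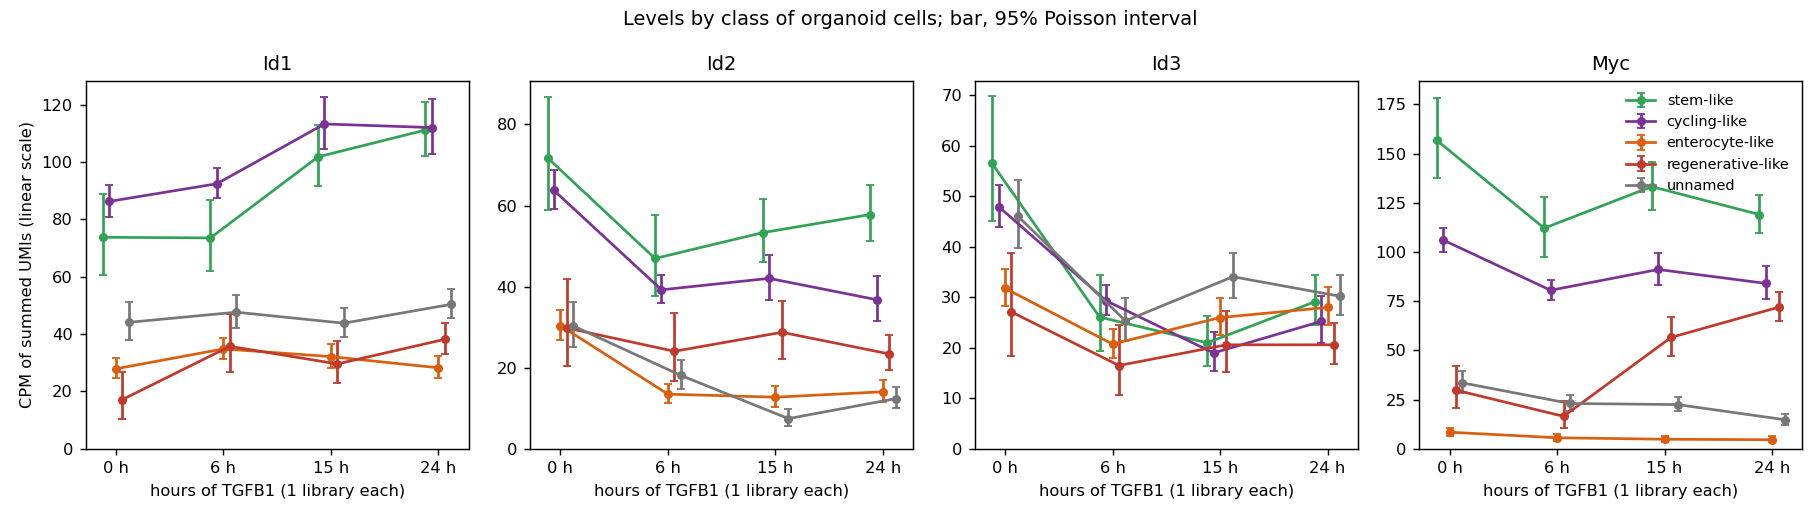
CPM (linear scale) of Id1, Id2, Id3 and Myc in classes of organoid cells at 0, 6, 15 and 24 h of TGFB1 (1 library each), with exact Poisson intervals (95%) as bars. Id1 goes up in cycling-like cells (86.3 to 112 CPM) and not in enterocyte-like cells (27.9 to 28.2 CPM), and Myc in regenerative-like cells is 29.8 CPM at 0 h and 71.9 CPM at 24 h, a class that held 3 cells at 0 h under finer clustering.

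Id4 was rare. The enteroendocrine-like cluster of 314 organoid cells held 3 of 6, 4 of 8.5, 1 of 3 and 15 of 24 UMIs of Id4 at 0, 6, 15 and 24 h (10.2 CPM in all; led by Chga and Neurog3, with the goblet genes Tff3 and Fcgbp also in front), against 0.0728 CPM in the 3914 enterocyte-like cells, which were of about equal or greater depth. The level rested mostly on the 24 h library and was 4.55 CPM without it, a setting added after the data were seen. In crypt cells Id4 lay mostly in the goblet-like cluster of 126 cells, with 23 of 40.8, 53 of 78.4 and 21 of 39.96 UMIs (54.8 CPM in all), against 1.03 CPM in enterocyte-like cells. Within goblet-like cells it was 29.7 CPM in the non-irradiated library and 83.7 and 58.0 CPM in the irradiated libraries, in 68, 38 and 20 cells. Fcgbp and Clca1 led that cluster, with Insm1 also in front. With finer clustering (resolution 1.0) the goblet-like cluster held 114 cells, and a separate enteroendocrine-like cluster of 14 cells was led by Insm1. The goblet-like cluster of 126 cells may thus hold enteroendocrine-like cells, and which of them held Id4 was not tested.

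In Ki67-RFP crypt cells of mice, 56 h after 12 Gy, Myc, Id2 and Id4 were higher and Id1 and Id3 lower than in the non-irradiated library. Both irradiated libraries lay on the same side for each of the 5 genes. Since the non-irradiated side is 1 library, no test was made. Of 8592 genes 33.6% were at least 1.5-fold apart (21.0% higher and 12.6% lower), so a difference of this size was common. Per the labels irradiated crypts were passed through a wider strainer than the others, so radiation and the strainer cannot be told apart.

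Myc was 36.9 CPM (34.6 to 39.3) in the non-irradiated library and 88.8 and 94.5 CPM in the irradiated ones, 2.48-fold higher in the mean. Id2 was 60.6 CPM (57.6 to 63.7) and then 119 and 95.3 CPM (1.77-fold higher). For Myc and Id2 the irradiated libraries differed from each other by less than from the other one. Id3 was 203 CPM (198 to 209) and then 124 and 105 CPM (1.77-fold lower), and Id1 was 187 CPM (182 to 192) and then 150 and 119 CPM (1.39-fold lower). For Id1 the irradiated libraries differed from each other (-0.32 on the log2 scale) as much as the first of them did from the non-irradiated one (-0.32). Id4 was 1.58 CPM and then 5.71 and 3.24 CPM, from 40.8, 78.4 and 39.96 UMIs. The median log2 ratio over all genes was 0.126 in this comparison. With median-ratio scaling in place of library totals the log2 ratios were 1.16 for Myc, 0.67 for Id2, -0.62 for Id1 and -0.98 for Id3.

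The listed MYC targets of at least 10 CPM went with Myc here, with 26 of 35 at least 1.5-fold higher and 1 lower (median log2 ratio 1.02). Among all genes 21.0% were higher and 12.6% lower by that much. Ncl and Npm1, both nucleolar proteins, were 498 and 850 CPM without radiation, 1216 and 2058 CPM in the first irradiated library and 1105 and 1770 CPM in the second. Mycn went the other way, from 7.49 CPM to 0.947 and 0.891 CPM. The summed CPM of 9 cycling-cell markers was 1328 in the non-irradiated and 1481 and 1315 in the irradiated libraries, so it did not separate them. The cells had been sorted for Ki67-RFP. Enterocyte markers summed to 4099 CPM without radiation and to 952 and 2441 CPM with it, Paneth cell markers to 3272, 895 and 1120 CPM, stem cell markers to 2255, 1392 and 909 CPM, and regenerative markers to 164.5, 831 and 986 CPM. Immune markers summed to 31.1, 72.8 and 67.0 CPM, and an immune-like cluster of 8 cells held 20 UMIs of Id2, while the irradiated libraries held 1633 and 1176.5 in all. The part of these markers in the result was not tested.

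Named crypt clusters were split by radiation, so that most could not be compared across it. Stem-like cells (led by Sfrp5, Olfm4 and Lgr5) came from the non-irradiated library, 680 of its 1846 cells, with 62.7 CPM of Myc, 170 CPM of Id1 and 166 CPM of Id3. Regenerative-like cells (led by Ly6d, Anxa8 and Clu) came from the irradiated libraries, with 95.04 and 103 CPM of Myc, 137 and 107 CPM of Id1, and 89.2 and 84.8 CPM of Id3. In these cells Id2 was 71.7 and 67.0 CPM, near the 63.9 CPM of the stem-like cells. In the clusters without a name, 31.5% of the non-irradiated and 57.7 and 43.2% of the irradiated cells, Id2 was 58.1 CPM and then 148 and 125 CPM. A cluster from one side of the comparison may reflect the library as much as a cell type.

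The crypt and organoid values of Id2 after radiation stood on opposite sides. In vehicle organoids, 4 Gy on day 4 and harvest on day 7, Id2 was 3.55-fold lower than without radiation, whereas in sorted crypt cells 56 h after 12 Gy it was 1.77-fold higher. Myc was on the higher side in both, 1.36-fold in vehicle organoids and 2.48-fold in crypt cells. Culture against crypt cells from mice, the mouse line, dose, time, the sort and the assay all differ between these comparisons. Irradiated crypts also passed a wider strainer than the others. The difference between the comparisons was not tested.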

How the data were processed

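Bulk values are FPKM deposited by the authors in 1 table per condition. The submitters' processing notes list TopHat2 2.1.0, Cuffnorm 2.2.1 and Cuffdiff 2.2.1 without saying which step gave these FPKM. The single-cell matrices hold estimated counts of UMIs deposited by the authors, with STAR 2.7.10a and STARsolo in the submitters' processing notes. Between 8.67 and 22.0% of UMIs lay in fractional entries, which were kept, except that Poisson intervals treat the sums as counts. The notes name the builds mm9 and GRCm39 without their roles. ATAC-seq peaks of the series were not analysed here. Columns that matched no sample numbered 0.

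Members and gene lists were chosen with earlier results of these data known. For bulk data, genes averaging 1 FPKM or more over the libraries of a fit entered, as log2(FPKM + 1), limma 3.58.1 (R 4.3.3) with trend and robust variance, with Benjamini-Hochberg adjustment over all genes at 0.05 (two-sided), tested on simulated data. TGFB1 comparisons used the 6 libraries of a table and interactions 12 libraries. Conditions in separate tables were compared as levels only. Same-numbered libraries did not deviate together (correlations from -0.0856 to 0.213, not all above 0.1), so replicate numbers were not taken as pairs.

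Cells were kept from 500 UMIs and 250 genes upward if mitochondrial UMIs did not pass 20%. Doublets were neither called nor removed. Libraries shared at most 1 barcode. Cells were clustered without the members (scanpy 1.11.5, leidenalg 0.10.2, 2000 variable genes, 30 principal components, resolution 0.6) and named from marker lists. Clusters led by pseudogenes or small RNAs were left unnamed, a rule added once the clusters had been seen. Members are named in every comparison. Of each list, genes among the 3 largest rises and the 3 largest falls could be named, and the 3 genes most like each member. List genes given in single cells, and Cdkn1a, Cdkn2b, Neurog3 and Smad7 where they fall outside that rule, were chosen after their values were seen. Alternatives were another pseudocount and filter, median-ratio and quantile scaling, all 18 libraries in one fit, a replicate block, each library left out, other cell limits, whole-number entries and a finer clustering.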

Additional observations from a re-analysis of the deposited data

Results flagged for a closer look

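The response to TGFB1 differed between unirradiated and irradiated D7 organoids for 3 members, by the interaction over 12 libraries in limma. The difference in log2 change, irradiated minus unirradiated, was -0.91 for Myc (adjusted p = 1.52e-09), -0.70 for Id2 (adjusted p = 8.09e-06) and -0.25 for Id1 (adjusted p = 0.00119). Treated Myc libraries were higher than vehicle in 3 of 3 unirradiated and lower in 3 of 3 irradiated libraries, whereas treated Id1 libraries were higher in both conditions.

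Between D7 and D11 the difference between treated and vehicle irradiated organoids changed for the same 3 genes, also by limma. It changed by 0.94 for Id2 (adjusted p = 5.09e-05), by 0.48 for Myc (adjusted p = 6.6e-05) and by -0.62 for Id1 (adjusted p = 0.0137). The cycling, stem cell and enterocyte marker sums given with the bulk results differed between these groups as well, and their part was not tested. Both sets of values use the D7 irradiated libraries.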

How the results depend on the processing

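Of 120 bulk member results under settings other than leaving out a library, 111 kept their direction and side of the threshold, and of 168 with 1 library left out, 156 did. None changed direction. The number of genes called stayed within 1.5 times in all 30 and 42 such results. Adjusted p-values here are from limma, and the cause of each change was not tested. The Id2 change in D7 unirradiated organoids was 0.032 with quantile normalization (adjusted p = 0.373) and 0.091 when all 18 libraries were fitted together (adjusted p = 0.375), and the Id3 change there was -0.30 in that fit (adjusted p = 0.445). On D11 the Id2 change was 0.32 without the filter (adjusted p = 0.0513). Calls appeared on D11 for Myc with quantile normalization (0.22, adjusted p = 0.0421), and in the fit of all 18 libraries for Myc (0.12, adjusted p = 0.0169) and Id3 (-0.90, adjusted p = 0.0212). The Id1 interaction with radiation was -0.25 in that fit (adjusted p = 0.251).

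With 1 library left out, changes ran from 0.074 to 0.10 for Id2 and from -0.38 to -0.19 for Id3 in D7 unirradiated organoids, and on D11 from 0.22 to 0.44 for Id2 and from -1.34 to -0.43 for Id3. The Id3 interactions ran from 0.10 to 0.29 with radiation and from -1.25 to -0.33 with day. With the replicate block, which is no pairing given by the labels, the Id3 interaction with radiation was 0.21 (adjusted p = 0.0338), and no other call of a member changed.

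In single cells 137 of 160 member ratios moved by less than the counting interval. For irradiated against other crypt cells, median-ratio scaling gave -0.62 for Id1, 0.67 for Id2, -0.98 for Id3 and 1.16 for Myc, and whole-number entries alone gave -0.35, 0.95, -0.71 and 1.43. With 1 irradiated library left out they ran from -0.65 to -0.32 for Id1, 0.65 to 0.97 for Id2, -0.95 to -0.72 for Id3, 1.03 to 1.85 for Id4 and 1.27 to 1.36 for Myc. With finer clustering 30 of 125 class levels moved outside their counting intervals.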
